A study of Mus musculus with 6 samples.

Results

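The plasminogen activation system was described here by 5 genes, Plat, Plau, Plaur, Serpinf2 and Plg, chosen by name as activators, receptor, inhibitor and zymogen from a table of 16426 genes of mouse liver. All 5 were in the table and all 5 were among the 14114 genes that the authors tested. The labels give 6 liver samples of male C57/BL mice: 3 from a group exposed to 20% carbon tetrachloride (CCl4), a solvent that injures hepatocytes, for 10 weeks to produce liver fibrosis, and 3 from a normal group given saline. The design also names a group that received CCl4 with didymin, which was not analysed here. The table compares a set of 3 libraries called ly_A with another 3 called ly_B, and neither name matches a label. Which set holds the CCl4 mice and which the normal mice is therefore not stated, and every difference below is between ly_A and ly_B, with none given as an effect of CCl4.

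Plasminogen is a liver-made zymogen of the blood. The serine proteases tPA (Plat) and uPA (Plau) cut it to plasmin, which dissolves fibrin, degrades matrix proteins and activates other proteases. uPA works at the cell surface on its receptor uPAR (Plaur), a protein held by a lipid anchor on leukocytes and other migrating cells, and free plasmin is inactivated by antiplasmin (Serpinf2), a serpin secreted by hepatocytes. In liver, plasmin is known for clearing fibrin and matrix after injury.

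The genes for both activators and for the uPA receptor were lower in ly_A than in ly_B, whereas those for the zymogen and the plasmin inhibitor did not pass the test per the authors' deposited table. Calls rest on the adjusted p given in that table, with a threshold of 0.05. By this rule 0 of the 5 members were higher in ly_A and 3 were higher in ly_B, against 18.1% of all tested genes higher in ly_A and 17.7% higher in ly_B. The median log2 fold change, ly_A over ly_B, was -1.43 over the 5 members and 0.070 over all tested genes per the authors' deposited table. The 5 genes were chosen with results of these data known, so this count is a description of them.

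Promoters of 2 members were in the RefSeq table, those of Plaur and Serpinf2, and they are shown because one of these genes had the largest difference among the 5 and the other the smallest. The promoter of Anxa2, a plasminogen-binding gene described below that was also lower in ly_A, is set beside them. Anxa2 had the lowest log2 fold change among the tested genes of the pathway lists described below, and no other gene of those lists was scanned. The genes shown therefore cannot tell whether a motif goes with the direction of a difference. Each line gives the 250 bases before the gene's start, 5′ to 3′ on the gene's strand, in build GRCm38.p6. Capitals mark matches on either strand to the AP-1 motif TGANTCA, the GC box GGGCGG and the TATA box TATAAA. The windows are chr7:24462233-24462482 on the plus strand for Plaur, chr11:75439502-75439751 on the minus strand for Serpinf2 and chr9:69453433-69453682 on the plus strand for Anxa2.
Plaur: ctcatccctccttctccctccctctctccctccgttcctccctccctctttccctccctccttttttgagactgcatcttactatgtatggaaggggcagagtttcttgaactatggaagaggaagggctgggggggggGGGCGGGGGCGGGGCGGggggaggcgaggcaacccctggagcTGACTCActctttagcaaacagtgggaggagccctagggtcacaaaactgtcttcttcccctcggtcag
Serpinf2: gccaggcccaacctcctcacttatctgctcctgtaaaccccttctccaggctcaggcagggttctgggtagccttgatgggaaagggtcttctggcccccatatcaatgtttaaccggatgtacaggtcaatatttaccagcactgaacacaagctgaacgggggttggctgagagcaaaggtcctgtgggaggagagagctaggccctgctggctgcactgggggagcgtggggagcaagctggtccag
Anxa2: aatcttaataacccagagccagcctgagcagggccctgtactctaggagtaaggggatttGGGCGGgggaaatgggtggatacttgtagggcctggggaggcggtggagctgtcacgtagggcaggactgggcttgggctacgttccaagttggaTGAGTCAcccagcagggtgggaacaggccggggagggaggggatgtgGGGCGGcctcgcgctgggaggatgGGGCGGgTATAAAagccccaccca

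The Plaur window held 1 AP-1 match, at 69 to 63 bases before the start, and 3 GC boxes, of which those at 105 to 100 and 100 to 95 bases share 1 base. The Anxa2 window also held 1 AP-1 match, at 95 to 89 bases before the start, with 3 GC boxes and 1 TATA box. In the Serpinf2 window none of these motifs was found. Of 32851 promoter windows of the same length in the RefSeq table, 6.75% held the AP-1 motif, 32.7% the GC box and 12.4% the TATA box. A match is a run of letters and says nothing of a factor's binding, and no binding was measured. Promoters of Plat, Plau and Plg were not used here.

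Plaur, the uPA receptor, was 8.59-fold lower in ly_A than in ly_B (log2 fold change -3.10, adjusted p = 6.02e-10 per the authors' deposited table). Of the 14114 tested genes, 135, or 0.956%, had a lower log2 fold change, and 334 had a smaller p per the authors' deposited table. Its difference was the largest of the 5 members. No level per library is given for any gene: the columns of single libraries match no labelled sample and were left out by choice. A standard error could be had only indirectly: if the deposited p is that of a Wald test, the default of the tool that the submitters name, the p and the log2 fold change imply a standard error. For Plaur this was 0.46, with a 95% interval from -4.00 to -2.20 on the log2 scale.

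Plat, which encodes tPA, was 3.04-fold lower in ly_A (log2 fold change -1.60, adjusted p = 0.000418 per the authors' deposited table). Under the same Wald assumption its standard error was 0.40 and its 95% interval ran from -2.39 to -0.82. Plau, which encodes uPA, was 2.69-fold lower in ly_A (log2 fold change -1.43, adjusted p = 0.0163 per the authors' deposited table). Its standard error under that assumption was 0.50, the widest of the 5 members, with a 95% interval from -2.41 to -0.44. The intervals of the 2 activators overlapped over most of their length, and a difference between Plat and Plau was not tested. In the authors' deposited table, 3.82% of tested genes had a lower log2 fold change than Plat and 4.82% had a lower one than Plau. All 3 called members differed by more than 2-fold, which with the adjusted p held for 10.9% of tested genes towards ly_A and 7.85% towards ly_B.

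Plg, the zymogen, was 1.30-fold higher in ly_A, and the difference did not pass the adjusted threshold (log2 fold change 0.38, p = 0.0358, adjusted p = 0.0864 per the authors' deposited table). Under the Wald assumption the 95% interval ran from 0.025 to 0.73, which before adjustment leaves out 0 and reaches at most 1.66-fold higher in ly_A. Plg overlaps Slc22a3 on the other strand in GENCODE M21. Whether reads were counted by strand is not given in the sources used here, so reads of the 2 genes may not be told apart. Serpinf2, the antiplasmin gene, had a log2 fold change of 0.0067, with an adjusted p of 0.988 per the authors' deposited table. Its interval under the Wald assumption ran from 0.684-fold to 1.48-fold, ly_A over ly_B, so a difference within that range is not excluded. Relative to the median of all tested genes the Serpinf2 value was -0.063, that is, on the other side of 0, and that of Plg was 0.31.

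**Figure D1:**
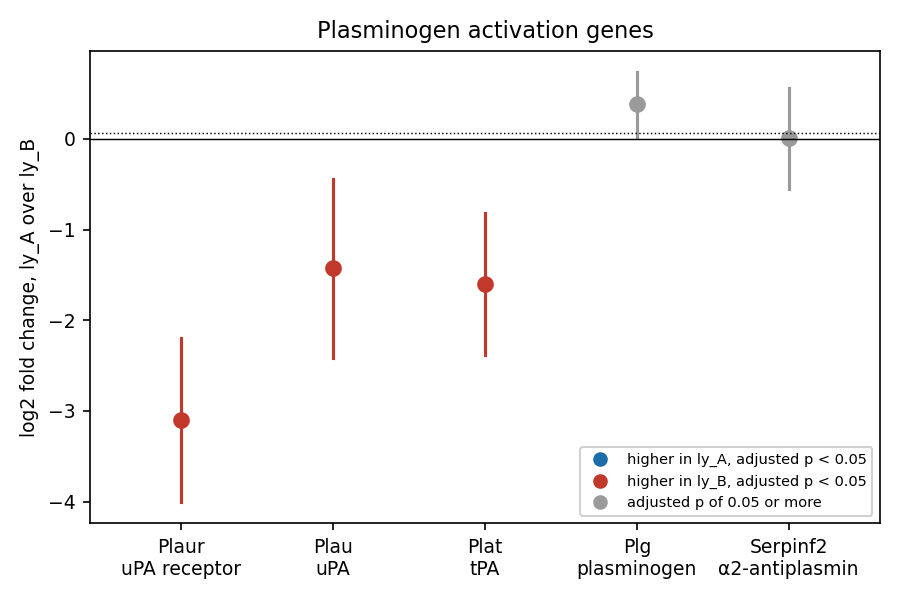
Log2 fold change, ly_A over ly_B, of the 5 genes per the authors' deposited table (vertical axis); points are the deposited values and lines the 95% intervals implied if the p is from a Wald test, with 0 as a solid and the median of all tested genes, 0.070, as a dotted line. Plaur at -3.10, Plat at -1.60 and Plau at -1.43 have intervals wholly below 0, while the interval of Serpinf2 spans 0 and that of Plg runs from 0.025 to 0.73.

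**Figure D2:**
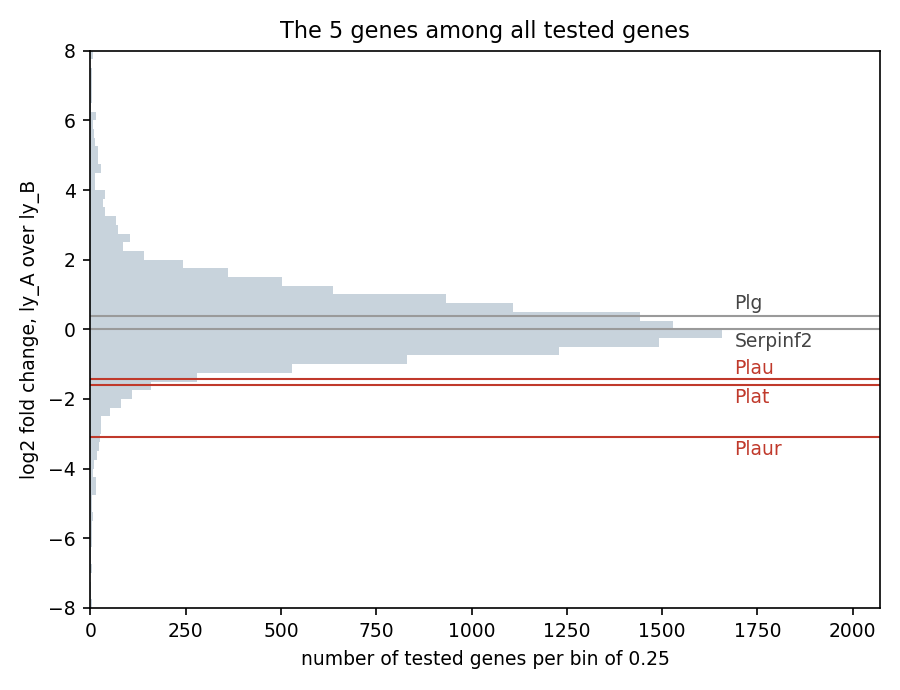
Number of tested genes (horizontal axis) per bin of log2 fold change, ly_A over ly_B (vertical axis), with values beyond the axis put in the outermost bins and a line at the value of each of the 5 genes. Plaur, Plat and Plau lie in the tail towards ly_B, and Plg and Serpinf2 lie near the peak.

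Of the 3 calls, that of Plau was the least firm. At an adjusted p under 0.01, which 12.3% of tested genes met towards ly_A and 12.7% towards ly_B, Plat and Plaur were called and Plau was not. Under a Bonferroni adjustment, met by 4.58% towards ly_A and 4.81% towards ly_B, Plaur was the one member called. Adjusted over all 16426 rows, 17.4% of tested genes were called towards ly_A and 17% towards ly_B, and Plat, Plau and Plaur were all called.

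Genes for other inhibitors of the system showed 1 call among 5 tested, towards ly_B. The counts of this list and of those below stand beside 18.1% of all tested genes called towards ly_A and 17.7% towards ly_B. Pzp, a broad protease inhibitor of the macroglobulin family, was 1.98-fold lower in ly_A (log2 fold change -0.99, adjusted p = 0.000117 per the authors' deposited table). Serpine2, a serpin that inhibits uPA and thrombin, had 0.50, and Serpini1, the tPA inhibitor neuroserpin, had -0.69 (smallest adjusted p = 0.494 per the authors' deposited table). Cpb2, a carboxypeptidase that removes the plasminogen-binding ends of fibrin, stood at a log2 fold change of 0.033, and Serping1, an inhibitor of complement and contact proteases, at 0.35 per the authors' deposited table (adjusted p = 0.893 for Cpb2 and 0.101 for Serping1). Serpinb2 and A2m were in the table with an adjusted p of 1 and were treated as not tested. Serpina5 was not analysed here. The list's median log2 fold change was 0.033 per the authors' deposited table.

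Genes whose proteins bind plasminogen or uPA, or clear uPA with its inhibitor, differed in both directions: 4 of 13 were higher in ly_A and 4 in ly_B, with a median log2 fold change of -0.042 per the authors' deposited table. Plgrkt, a membrane receptor of plasminogen, was 3.20-fold higher in ly_A (log2 fold change 1.68, adjusted p = 3.79e-05), and Anxa2, the annexin that binds tPA and plasminogen on cells, was 6.50-fold lower (log2 fold change -2.70, adjusted p = 1.21e-20 per the authors' deposited table). S100a10, which encodes the partner of annexin A2, did not pass per the authors' deposited table (log2 fold change -0.079, adjusted p = 0.784). The proteins of Anxa2 and S100a10 form one complex on the cell surface, and the messages for the pair thus differed in their calls, although the difference between them was not tested.

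The integrin genes Itgam and Itgb1, whose products work with uPAR in adhesion, were lower in ly_A by log2 values of -2.14 and -0.99 per the authors' deposited table (largest adjusted p = 0.000411). Igf2r, a receptor that binds uPAR and plasminogen besides IGF2, stood lower in ly_A at -1.46 (adjusted p = 1.28e-10 per the authors' deposited table), but it overlaps Airn on the other strand in GENCODE M21. Vldlr, an endocytic receptor of uPA with its inhibitor, was higher in ly_A at 1.68, and Lrp1, the main hepatic receptor for the same cargo, had 0.051 and did not pass per the authors' deposited table (adjusted p = 0.00149 for Vldlr and 0.822 for Lrp1). Clec3b, which encodes the plasminogen-binding lectin tetranectin, was higher in ly_A at 2.83, and Eno1, a glycolytic enzyme that also binds plasminogen, at 0.53 (largest adjusted p = 0.0145 per the authors' deposited table). Clec3b was also the least precise of these 13 genes, with a standard error of 0.98 under the Wald assumption. Eno1 has a near-identical copy in the mouse genome, and its value is uncertain. Mrc2, a collagen receptor that associates with uPAR, Vtn, the uPAR ligand vitronectin, and Hrg, a plasma protein that binds plasminogen, did not pass, at log2 fold changes of -0.77, 0.40 and -0.042 per the authors' deposited table (smallest adjusted p = 0.0540). Itgam overlaps Gm49368 on the same strand, and single values of such pairs are uncertain.

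Contact activators, plasma proteins that can start plasminogen activation on surfaces, had 2 calls among 4, both towards ly_A. Klkb1, plasma prekallikrein, was 3.90-fold higher in ly_A and Kng1, kininogen, 1.46-fold higher (log2 fold changes 1.96 and 0.54, largest adjusted p = 0.0133 per the authors' deposited table). F11 and F12, clotting factors of the same system, stood at log2 fold changes of 0.69 and 0.30 and did not pass per the authors' deposited table (adjusted p = 0.0973 for F11 and 0.178 for F12). Klkb1 overlaps Gm45753 on the same strand in GENCODE M21.

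Among genes of fibrin, the main substrate of plasmin, and of its cross-linking, 0 of 6 were higher in ly_A and 2 in ly_B. Fga, the fibrinogen alpha chain, was 2.16-fold lower in ly_A (log2 fold change -1.11, adjusted p = 0.000137 per the authors' deposited table). Its partner chains Fgb and Fgg had log2 fold changes of -0.22 and -0.21 and did not pass per the authors' deposited table (smallest adjusted p = 0.413). F13a1, the catalytic subunit of factor XIII, which cross-links fibrin and is made by macrophages, was 4.12-fold lower in ly_A, while F13b, its liver-made carrier subunit, stood at 0.022 (adjusted p = 0.0115 for F13a1 and 0.952 for F13b per the authors' deposited table). F2, prothrombin, had 0.11 and did not pass (adjusted p = 0.686 per the authors' deposited table).

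Of 8 genes for growth factors and proteases linked to plasminogen by sequence or by activation, 3 were higher in ly_A and 1 in ly_B. Hgf, a growth factor for hepatocytes that resembles plasminogen in its kringle domains, was 3.14-fold lower in ly_A (log2 fold change -1.65, adjusted p = 1.06e-06 per the authors' deposited table). Its kringle relative Mst1, made by hepatocytes, stood higher in ly_A at 0.78, and Hgfac and Hpn, proteases that activate the HGF precursor, at 0.72 and 0.56 (largest adjusted p = 0.0263 per the authors' deposited table). Mst1 overlaps Rnf123 on the other strand in GENCODE M21. The receptor genes Met and Mst1r and the protease genes St14 and Tmprss6 did not pass, with log2 fold changes between -0.49 for St14 and 0.80 for Mst1r per the authors' deposited table (smallest adjusted p = 0.172). Over all 5 lists, 9 of 36 tested genes were higher in ly_A and 8 were higher in ly_B, 25% and 22.2%, near the shares of all tested genes given above.

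**Figure D3:**
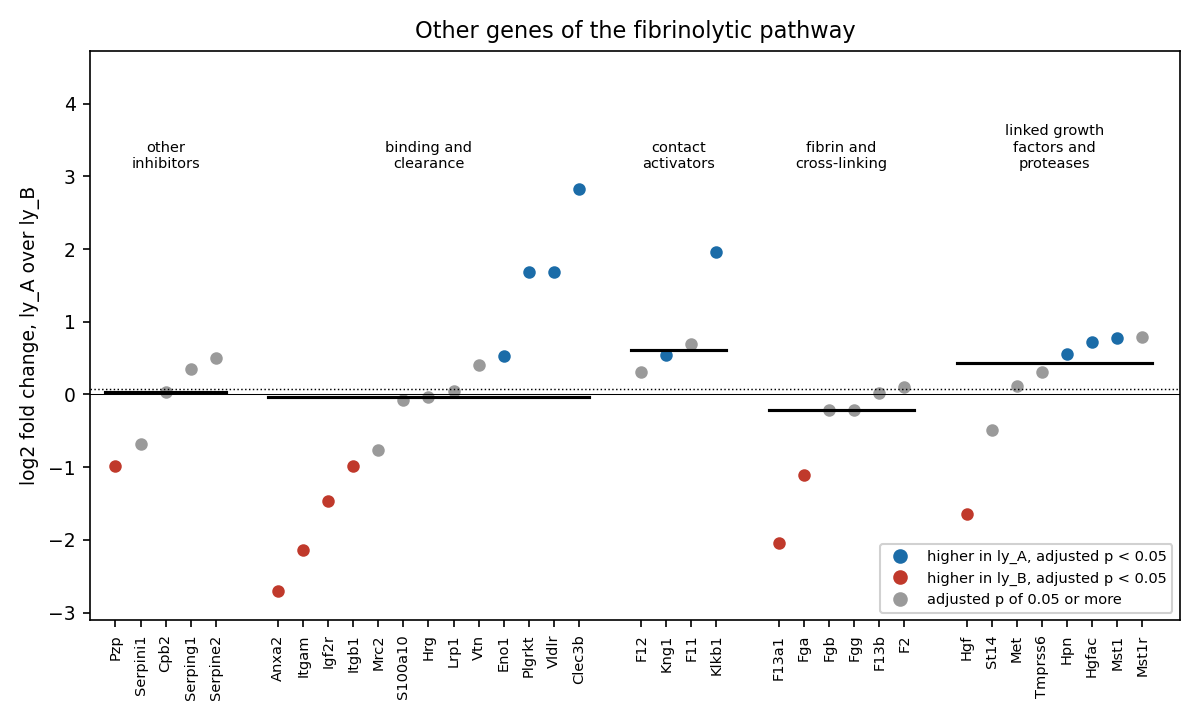
Log2 fold change, ly_A over ly_B (vertical axis), of each tested gene of the 5 pathway lists per the authors' deposited table, ordered by value within each list; thick bars are list medians and the dotted line is the median of all tested genes. Blue points, higher in ly_A, reach 2.83 (Clec3b), and red points, higher in ly_B, reach -2.70 (Anxa2).

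In bulk liver, fewer cells of a type and less RNA per cell cannot be told apart, and the 5 genes are made by different cells. Beside the marker counts, 18.1% of all tested genes were called towards ly_A and 17.7% towards ly_B. Of 9 markers of hepatocytes, the cells that make Plg and Serpinf2, 3 were called towards ly_A and 1 towards ly_B, with a median log2 fold change of 0.45 per the authors' deposited table. Of 11 tested markers of monocytes and macrophages, cells that carry uPAR, 1 was higher in ly_A and 3 in ly_B, with a median of -0.20. Those 3 were Gpnmb at -4.93, Itgam at -2.14 and Cd9 at -1.11, whereas Clec4f, a marker of resident Kupffer cells, was higher in ly_A at 2.63 per the authors' deposited table (largest adjusted p among these = 0.000411). Itgam also stands in the binding list above. Of 6 tested neutrophil markers, 0 were called in either direction (smallest unadjusted p = 0.0787), and the list's median log2 fold change was 0.77 per the authors' deposited table.

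Endothelial cells are known to make tPA, the product of Plat. Of 9 endothelial markers 8 were higher in ly_A and 0 higher in ly_B per the authors' deposited table, with a median log2 fold change of 1.21. Vwf, the von Willebrand factor gene, stood at 1.89, Stab2, a scavenger receptor of sinusoids, at 1.77 and Emcn at 1.57 (largest adjusted p = 0.0188 per the authors' deposited table). Of 4 mesothelial markers, 0 were higher in ly_A and 3 in ly_B, with a median of -3.17. Those 3 were Upk3b at -3.32, Msln at -3.25 and Upk1b at -3.08 (largest adjusted p = 0.0247 per the authors' deposited table). Wt1, also in this list, stood at -1.06 and did not pass (adjusted p = 0.285 per the authors' deposited table). Of 6 tested markers of stellate cells and myofibroblasts, 0 were higher in ly_A and 1 in ly_B (Pdgfrb at -0.67, adjusted p = 0.00842 per the authors' deposited table). The list's median log2 fold change was -0.33, and its values ran from -0.81 for Lrat to 1.22 for Acta2, neither of which passed per the authors' deposited table. Of 5 cholangiocyte markers, 0 were called towards ly_A and 1 towards ly_B (Sox9 at -1.68, adjusted p = 1.54e-13 per the authors' deposited table). Their median was -0.29, and Krt19 stood at 0.98 and did not pass (adjusted p = 0.100 per the authors' deposited table). Of 5 lymphocyte markers, 3 were higher in ly_A, with a median of 1.62 per the authors' deposited table. The part of any cell type in the values of the 5 genes was not tested.

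**Figure D4:**
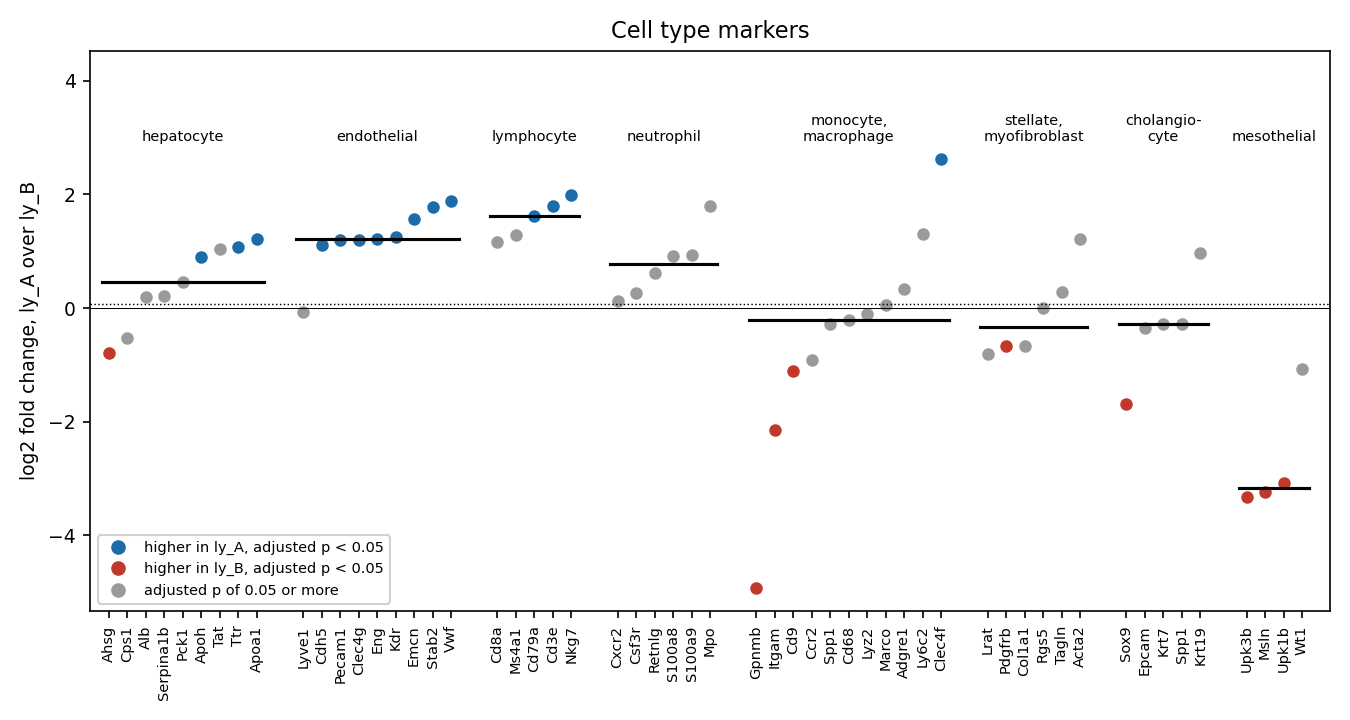
Log2 fold change, ly_A over ly_B (vertical axis), of each tested marker of 8 cell types per the authors' deposited table, ordered by value within each list, with thick bars at list medians. The endothelial median stands at 1.21 and the mesothelial median at -3.17, while the macrophage markers run from -4.93 (Gpnmb) to 2.63 (Clec4f).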

How the data were processed

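RNA of 6 mouse liver samples was sequenced after Trizol extraction with a NEBNext kit, per the labels' protocols. The submitters' processing notes name, for the authors' work, DESeq2, without version, and build mm9. Aligner, counter, annotation and strand setting were not given in the sources used here. Each gene's log2 fold change was deposited by the authors as the comparison of ly_A with ly_B, per the file headers. The sign was taken as ly_A over ly_B from that name and from the table's first rows, read by eye. The p-value and adjusted p-value of each gene are also as deposited by the authors. They set the difference between ly_A and ly_B against the spread between libraries. That spread may be technical, since the labels do not say that each library came from a separate animal.

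The 18 columns of single libraries match no label and entered no calculation, so depth, levels and SD are not given. An adjusted p of 1 stood in 2312 of 16426 rows, treated as not tested, although some of these rows hold an unadjusted p below 1. In the other 14114 the deposited value equalled a Benjamini-Hochberg adjustment over those rows, within a relative difference of 9.47e-13. Standard errors and 95% intervals were computed here as the log2 fold change divided by the normal deviate of the p, which assumes a two-sided Wald test. No test of this work was run across genes. Members, lists and rules were chosen with earlier results of these data known. All genes of the 5 pathway lists may be named, and of marker lists mainly the called genes with the largest difference. A gene planned for one list is not reported here. Promoters are from RefSeq (GRCm38.p6), matched by symbol for 2 of 5 members, and overlaps between genes from GENCODE M21. Both are of another build than mm9. The promoter coordinates above are those of GRCm38.p6, and overlaps are given by gene name only. Overlaps are named above for some genes only. Others, among them Anxa2, Hgf, F13a1, Pzp and Lrp1, also overlap another annotated gene. The Benjamini-Hochberg adjustment and the standard error formula were checked on simulated data whose p was built as that of a Wald test. Such a check cannot tell whether the deposited p is of that kind, and the other steps were not checked in this way. The calculations used Python 3.11.15, pandas 2.3.3 and SciPy 1.17.1. Alternative settings were a threshold of 0.01 on the adjusted p, an added limit of 2-fold, adjustment over all rows, Bonferroni adjustment and centring on the median of all tested genes.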

Additional observations from a re-analysis of the deposited data

How the results depend on the processing

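Plaur kept its call towards ly_B under the 4 alternatives that change the call rule; centring on the median leaves the p as it is and could not change a call. Plat, at -1.60, lost its call under Bonferroni adjustment, where its value was 0.830. Plau, at -1.43, lost it there too, at 1, and at an adjusted p under 0.01. The count of members higher in ly_B was 1 under Bonferroni adjustment, 2 at an adjusted p under 0.01, 3 with a 2-fold difference as well and 3 when adjusted over all rows. Serpinf2, not called under any of these 4, stood at -0.063 instead of 0.0067 after centring on the median of all tested genes. For the 36 tested genes of the 5 pathway lists, 9 were higher in ly_A and 8 in ly_B by the main rule. At an adjusted p under 0.01 the counts were 5 and 7, against 12.3% and 12.7% of all tested genes. With a 2-fold difference added to the main rule they were 4 and 6, against 10.9% and 7.85%. Under Bonferroni adjustment they were 1 and 4, against 4.58% and 4.81%. The lower counts follow from the stricter rules. No paired analysis was possible because the columns of single libraries match no labelled sample. These columns were left out by choice, so leaving out a replicate, other size factors and other filters on low counts were not run, and whether 1 library decides a value was not examined.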
